A study of Mus musculus with 2 samples.

Results

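The SOX factors of heart and vessels described here are 9 genes, Sox4, Sox5, Sox6, Sox7, Sox9, Sox11, Sox12, Sox17 and Sox18, chosen by symbol from the 21225 genes measured, and all 9 had a value on both arrays. They were compared between right atria of Shox2-/- mouse embryos, which carry no functional Shox2 allele, and right atria of wildtype embryos, both at E11.5 and in the CD-1 outbred background. The dissected atria included the sinus venosus myocardium and the venous valves, where Shox2 is expressed. Each genotype was represented by 1 array, hybridized with RNA pooled from 6 embryos of 2 pregnancies, so that no error or p-value can be given for a difference, and how embryos of a genotype vary is unknown.

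SOX proteins are transcription factors that bend DNA through a high-mobility-group box, a domain first described in the testis-determining factor Sry, and they are sorted into groups by the likeness of that box. SoxC genes (Sox4, Sox11 and Sox12) act in progenitor cells, and loss of Sox4 or Sox11 in the mouse disturbs the outflow tract. SoxD genes (Sox5 and Sox6) encode partner proteins without a known activation domain of their own. The SoxE gene Sox9 is needed in the mesenchyme of the endocardial cushions, and SoxF genes (Sox7, Sox17 and Sox18) act in endothelium, with Sox18 known for its part in lymphatic vessels.

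None of the 9 SOX genes reached a log2 difference, Shox2-/- minus wildtype, of 0.35 or more or of -0.4 or less, the size thresholds of the study, against 2.91% of all genes (1.13% on the higher and 1.78% on the lower side). The lowest difference was that of Sox9 with -0.27, a change in signal of -16.8%, and the highest was that of Sox7 with 0.19, or 13.9% more signal. Sox5 and Sox6 had lower values on the Shox2-/- array, and the SoxC genes had slightly higher ones. The median over the 9 genes was 0.019, beside a median of 0.021 over all genes, and the summed linear signal of the 9 genes was 3565 on the Shox2-/- array and 3566 on the wildtype array. All 9 differences lay inside the middle 95% of all genes, which ran from -0.36 to 0.30, and 5 of them lay outside the middle 50%, which ran from -0.10 to 0.13. A difference above 0 was found for 6 of the 9 genes and 54.9% of all genes, and for 5 of 9 and 50.6% of all genes once a trend of the difference on the level was removed. In pooled tissue, fewer cells of a type and less RNA per cell cannot be told apart.

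The median signal over all genes was 7.50 on the Shox2-/- array and 7.49 on the wildtype array, on the log2 scale. The level that probes reach without transcript was taken from the olfactory and vomeronasal receptor genes (1296 measured), with a 95th percentile of 6.97 on the Shox2-/- array and 6.77 on the wildtype array. On the mean of both arrays this level was 6.89, and 14421 of the 21225 genes lay above it, so that a place above it is common. Shox2 itself had 7.48 on the Shox2-/- array and 8.43 on the wildtype array, a difference of -0.95, and whether its probes lie inside the deleted part is not stated in the sources read. Markers of heart muscle had high signal in both pools, with the sarcomere gene Actc1 at 13.17 on both arrays and the atrial light chain gene Myl7 at 12.80 on the Shox2-/- array and 12.75 on the wildtype array. The difference between the arrays depended on the level of a gene. Its median was 0.12 in the third of 10 bins from low to high level and -0.089 in bin 9, so that differences are also given with a lowess trend on the mean level removed.

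RefSeq start-site windows were at hand for 5 of the 9 genes, and the upstream sequences of these are shown. The 3 SoxC genes among them had differences above 0 as deposited, and the SoxD genes Sox5 and Sox6 had differences below 0. The 3 SoxF genes, for which no window was at hand, also had differences above 0 as deposited, as did the SoxD gene Sox13 outside the 9. The 250 bases before the start are printed 5′ to 3′, with capitals for AATT (the palindrome altered in mutated oligonucleotides of the study), ACAAT (the core bound by SOX proteins) and CCAAT (the box bound by NF-Y), ACAAT and CCAAT on either strand. The first motifs were picked for the factors they concern, and CCAAT was picked after the sequences had been seen.
Sox4 (GRCm38.p6, chr13:28953700-28953949, minus strand): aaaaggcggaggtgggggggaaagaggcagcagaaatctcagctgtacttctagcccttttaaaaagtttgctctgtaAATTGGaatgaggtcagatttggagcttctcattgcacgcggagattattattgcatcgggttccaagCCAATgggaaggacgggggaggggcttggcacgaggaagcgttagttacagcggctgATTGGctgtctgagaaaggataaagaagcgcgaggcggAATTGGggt
Sox11 (GRCm38.p6, chr12:27342719-27342968, minus strand): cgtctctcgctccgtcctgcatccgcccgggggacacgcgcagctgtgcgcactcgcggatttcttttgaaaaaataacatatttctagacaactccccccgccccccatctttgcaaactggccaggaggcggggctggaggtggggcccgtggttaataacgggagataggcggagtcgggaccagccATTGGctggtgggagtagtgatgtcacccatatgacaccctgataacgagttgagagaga
Sox12 (GRCm38.p6, chr2:152398047-152398296, minus strand): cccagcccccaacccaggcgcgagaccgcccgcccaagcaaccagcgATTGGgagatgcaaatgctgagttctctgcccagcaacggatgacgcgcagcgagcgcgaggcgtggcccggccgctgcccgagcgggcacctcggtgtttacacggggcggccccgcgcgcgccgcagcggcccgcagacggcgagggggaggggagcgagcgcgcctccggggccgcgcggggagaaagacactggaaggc
Sox5 (GRCm38.p6, chr6:143947107-143947356, minus strand): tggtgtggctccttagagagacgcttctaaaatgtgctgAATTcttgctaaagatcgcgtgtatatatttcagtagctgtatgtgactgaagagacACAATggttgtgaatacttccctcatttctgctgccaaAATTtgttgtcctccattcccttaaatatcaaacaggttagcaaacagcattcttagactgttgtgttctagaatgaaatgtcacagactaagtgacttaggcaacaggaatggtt
Sox6 (GRCm38.p6, chr7:116038745-116038994, minus strand): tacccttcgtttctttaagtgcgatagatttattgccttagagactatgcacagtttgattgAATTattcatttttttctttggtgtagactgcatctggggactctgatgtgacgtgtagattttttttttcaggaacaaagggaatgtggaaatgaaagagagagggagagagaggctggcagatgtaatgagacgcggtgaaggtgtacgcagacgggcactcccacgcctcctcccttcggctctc
The 3 SoxC windows each hold CCAAT, 4 times for Sox4 and 1 time each for Sox11 and Sox12, and 33.8% of 32851 windows of the same length hold it. Both AATT sites of Sox4 overlap a CCAAT, while the windows of Sox11 and Sox12 hold no AATT and none of the SoxC windows holds ACAAT. The Sox5 window holds AATT 2 times and ACAAT 1 time, and the printed Sox6 window holds AATT 1 time, and neither holds CCAAT. AATT is found in 47.1% and ACAAT in 27.7% of all windows. The Sox12 window has 74.4% G and C, beside 39.6% for Sox5 and a median of 52.4% over all windows. Sox6 has 6 listed starts, of which the most upstream is shown, and of the 6 windows 2 hold CCAAT, 3 hold ACAAT and 5 hold AATT, so that the lack of CCAAT depends on the window chosen. The Sox5 window and the printed Sox6 window both lie within the annotated genes, with starts 835181 and 2032 bases inside the upstream end. Other starts of these genes may therefore be the ones in use in the atrium. These matches describe the letters and not binding.

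Among the SoxC genes, which are widely expressed in embryonic progenitors, all 3 had a higher value on the Shox2-/- array, and this direction was the same under each of the 4 other scalings tried. Sox11 had the highest signal of the 9 genes, 9.38 on the Shox2-/- array and 9.33 on the wildtype array, a difference of 0.053. Sox12 had 9.31 on the Shox2-/- array and 9.21 on the wildtype array, a difference of 0.095. Sox4 had 9.01 on the Shox2-/- array and 8.87 on the wildtype array, and its difference of 0.14 was exceeded by 22.7% of all genes. The SoxC genes thus lay within 0.084 of each other in their differences. With the trend between the arrays removed, their differences were 0.22 for Sox4, 0.18 for Sox12 and 0.14 for Sox11, since genes of their level had on the whole lower values on the Shox2-/- array. Of 3 genes that SoxC proteins are known to activate, none was past a threshold. These were Tead2, a Hippo pathway factor with 10.15 on the Shox2-/- array and 10.11 on the wildtype array, the neuronal tubulin gene Tubb3 with a difference of 0.019, and Dcx, a gene of young neurons, with -0.030, and the signs of Tubb3 and Dcx changed with the scaling.

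**Figure D1:**
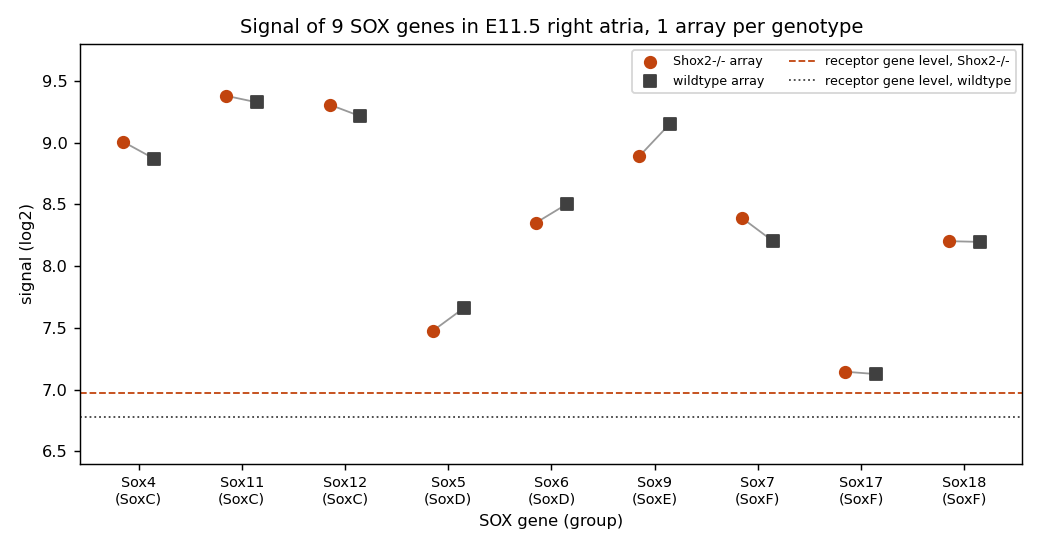
Signal of the 9 SOX genes on the log2 scale, with 1 point for the Shox2-/- array (circles, left) and 1 for the wildtype array (squares, right) of each gene and horizontal lines at the 95th percentile of receptor genes on each array. All 9 genes lie above both lines, with Sox17 nearest to them (7.14 on the Shox2-/- array and 7.13 on the wildtype array). By mean signal, 14421 of all 21225 genes lie above the receptor level.

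Both SoxD genes among the 9 had lower values on the Shox2-/- array. Sox5, which works with Sox6 and Sox9 in cartilage, had 7.47 on the Shox2-/- array and 7.66 on the wildtype array, a difference of -0.18, and 13.5% of all genes had a lower one. Sox6, which also acts in muscle and in red blood cells, had 8.35 on the Shox2-/- array and 8.50 on the wildtype array, a difference of -0.15. The difference of Sox5 was -0.20 with the trend removed, while that of Sox6 was -0.084, which is nearer to 0 than as deposited by over 1.5 times. The SoxD gene Sox13 had 7.79 on the Shox2-/- array and 7.74 on the wildtype array and so did not share the sign of Sox5 and Sox6. Genes of red blood cells, in which Sox6 is known to silence embryonic globin genes, were lower on the Shox2-/- array for all 13 measured, except that Hbb-y was at 0 after a second quantile normalization. Of the 13, 9 were past the lower threshold (5 with the trend removed), against 1.78% of all genes as deposited, and the median was -0.47. Their summed linear signal was 35657 on the Shox2-/- array and 43212 on the wildtype array. The erythroid factor Gata1 had 8.90 on the Shox2-/- array and 9.59 on the wildtype array. Liver genes were lower as well, for all 9 measured, with a median of -0.95 and a summed linear signal of 2735 on the Shox2-/- array and 6118 on the wildtype array. The parts of red blood cells and liver in the difference of Sox6 were not tested. The embryonic globin genes, all at or above 12.75 on both arrays, had differences of -0.21 (Hba-x), -0.18 (Hbb-y) and -0.12 (Hbb-bh1). The adult gene Hbb-bs had 9.48 on the Shox2-/- array and 10.57 on the wildtype array, a difference of -1.09. The highest value on either array was 13.59, so that the embryonic genes lay near the top of the measured range, and the part of this in their differences was not tested. Bcl11a, a partner of Sox6 at globin genes, had 9.46 on the Shox2-/- array and 9.50 on the wildtype array.

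Sox9, the only SoxE gene among the 9, had 8.89 on the Shox2-/- array and 9.15 on the wildtype array. The difference of -0.27 ranked 1413 from the bottom among the 21225 genes, so that 6.65% of all genes had a lower one. It was between -0.27 and -0.18 over all scalings, with -0.18 after removal of the trend, where it no longer lay below that of Sox5. The other SoxE genes differed from it in sign or size, as Sox8 had 8.12 on the Shox2-/- array and 7.86 on the wildtype array, a difference of 0.26, and Sox10, a gene of neural crest, had 7.61 on both arrays. Sox8 was exceeded by 4.69% of all genes.

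Sox9 and the SoxD proteins together activate genes of the cartilage matrix, some of which are also used in heart valves. Of 13 such genes measured, 12 had a difference above 0, beside 54.9% of all genes, and none reached a threshold. Their median was 0.17, beside 0.021 over all genes. With the trend removed, 10 of 13 lay above 0, beside 50.6% of all genes, and the median was 0.15. The highest difference was that of Col9a3, a chain of type IX collagen, with 7.89 on the Shox2-/- array and 7.58 on the wildtype array. Col2a1, the chain of type II collagen, had 8.25 on the Shox2-/- array and 8.06 on the wildtype array. Hapln1, which links hyaluronan to proteoglycans in cushion matrix and had the highest signal of the list, was the one gene below 0, with 9.92 on the Shox2-/- array and 10.09 on the wildtype array. Of these genes, 9 lay above the level of receptor genes on each array, and Acan, Cnmd, Matn1 and Comp did not. The cartilage genes as a list and Sox9 therefore had opposite signs on these arrays, and Hapln1 had the sign of Sox9.

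In the list of cushion and valve mesenchyme, where Sox9 is known to act, 7 of 16 genes had a difference above 0 and 9 below 0, with a median of -0.022. Removing the trend on level turned this to 10 above and 6 below 0 (median 0.037). The matrix proteoglycan gene Vcan, with 10.33 on the Shox2-/- array and 10.73 on the wildtype array, and Bmp2, with 8.12 on the Shox2-/- array and 8.62 on the wildtype array, were on the side of Sox9. Prrx1 with 0.80, Msx2 with 0.60, Twist1 with 0.42 and Scx with 0.35, transcription factors of mesenchyme, were past the upper threshold, and Bmp2 with -0.50 was past the lower one. The summed linear signal of the list was 11056 on the Shox2-/- array and 10977 on the wildtype array. Genes of foregut and lung epithelium, where Sox9 and Sox2 are also expressed, were lower for 7 of 9. Past the lower threshold were 3 of them, Cldn6 (-0.71), Foxa1 (-0.64) and Nkx2-1 (-0.41), against 1.78% of all genes. The 2 genes above 0 were Cdh1 with 0.11 and Krt18 with 0.089, so that the list did not move as a whole. The summed linear signal of the 9 genes was 2321 on the Shox2-/- array and 2726 on the wildtype array. All 9 of these genes lay above the level of receptor genes on both arrays, and the part of epithelium in the difference of Sox9 was not tested.

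**Figure D2:**
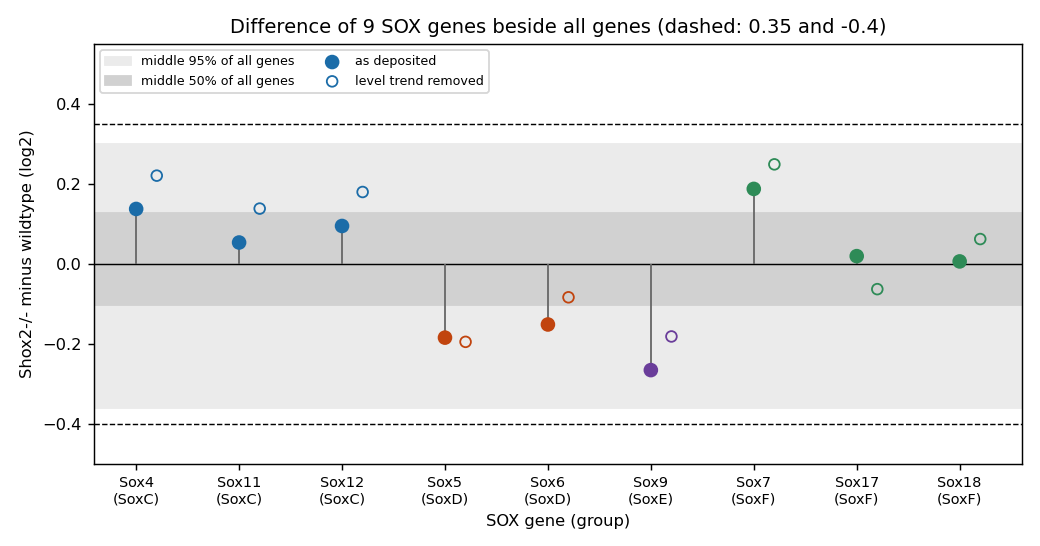
Difference of each of the 9 SOX genes on the log2 scale, Shox2-/- minus wildtype, as deposited (filled) and with the trend on the mean level removed (open), over bands for the middle 95% and 50% of all genes. All 9 filled points lie between the dashed thresholds of 0.35 and -0.4, with Sox9 lowest at -0.27 and Sox7 highest at 0.19.

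The SoxF genes, which are redundant in part in the endothelium of vessels, differed among themselves. Sox7 had 8.39 on the Shox2-/- array and 8.20 on the wildtype array, and its difference of 0.19 was exceeded by 13.1% of all genes and reached 0.25 with the trend removed. Sox18 had 8.20 on both arrays, a difference of 0.0059. Sox17, which acts in arterial endothelium and in endoderm, had 7.14 on the Shox2-/- array and 7.13 on the wildtype array, a difference of 0.019 that was -0.063 with the trend removed, the one change of sign among the 9 genes. Its signal lay 0.17 above the receptor level of the Shox2-/- array and 0.35 above that of the wildtype array, nearer than any other of the 9 genes.

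Of 9 genes that SoxF proteins are known to act on, 7 had a difference above 0, none was past a threshold and the median was 0.022. Notch1, a receptor of arterial fate, had 8.89 on the Shox2-/- array and 8.66 on the wildtype array, and the difference of 0.24 was the highest of the list. The junction genes Cdh5 and Cldn5 had differences of 0.016 and 0.043, the lymphatic factor Prox1 had 0.022, the Notch ligand gene Dll4 had 0.020 and the VEGF receptor gene Kdr had -0.091. Of 19 endothelial and endocardial genes, 9 lay above and 10 below 0 with a median of -0.0047, and the one past a threshold was Tal1 with -0.47, which is also a gene of red blood cells. With the trend removed, 13 of the 19 lay above 0, beside 50.6% of all genes, with a median of 0.080 and none past a threshold. Their summed linear signal was 9989 on the Shox2-/- array and 10243 on the wildtype array, and all 19 lay above the level of receptor genes on both arrays. Of the lymphatic genes Lyve1, Flt4 and Pdpn, none was past a threshold, and the differences were -0.048, 0.064 and 0.25. Mef2c, a partner of Sox18 in endothelium, had 9.18 on the Shox2-/- array and 9.13 on the wildtype array.

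**Figure D3:**
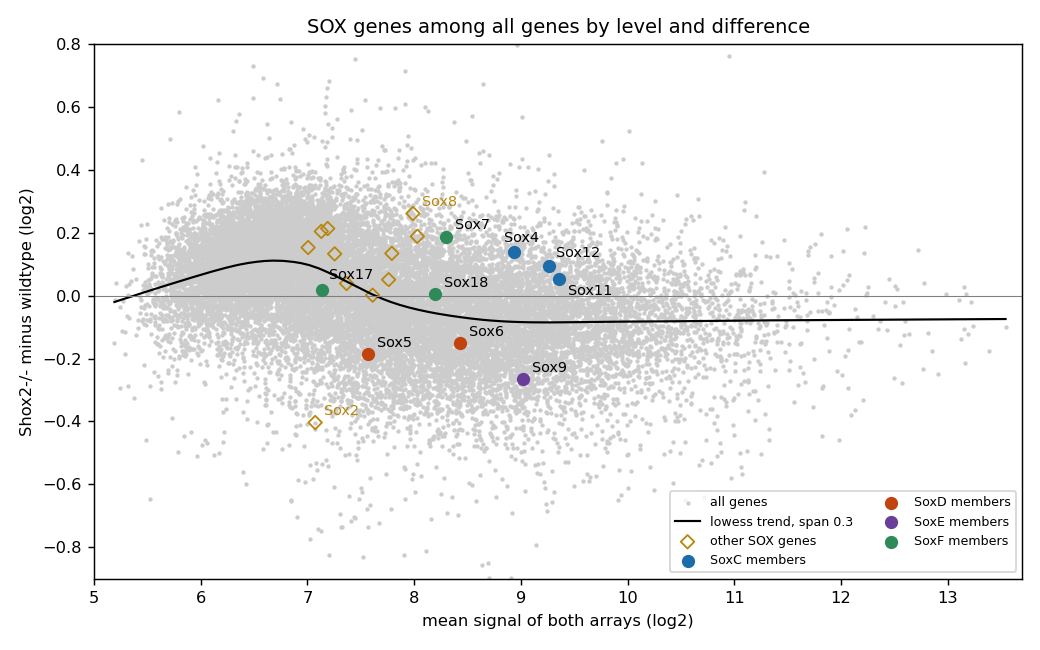
Difference of every gene on the log2 scale, Shox2-/- minus wildtype, against the mean signal of both arrays, with the 9 SOX genes in colour, the 11 other SOX genes as open diamonds and the lowess trend as a line, and 25 genes outside the drawn range. The trend lies above 0 at low signal and below 0 at high signal, the SoxC genes lie above it, and Sox5, Sox6 and Sox9 lie below it.

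The 11 other genes of the family are known mostly from the nervous system and the gonads, and only Sox2 was past a threshold. Of these, 10 had a difference above 0 and a median of 0.13, or 8 of 11 and 0.069 with the trend removed. Sry, a Y-linked gene of the embryonic gonad, had 7.39 on the Shox2-/- array and 7.35 on the wildtype array, and Sox3 and Sox1, genes of the neural plate, had 8.12 and 7.86 on the Shox2-/- array and 7.94 and 7.72 on the wildtype array. The receptor level was exceeded by 10 of the 11 on the Shox2-/- array and by all 11 on the wildtype array, also for genes such as Sry that have no known role in the atrium. The signal of a gene depends on its own probes, so that the order of the 9 genes, with Sox11 first and Sox17 last on both arrays, is an order of signal and not of transcript number. Between the arrays, Sox4 and Sox9 exchanged places in that order, as did Sox6 and Sox7, and the spread behind these places is not known. Sox2, a gene of foregut epithelium and neural cells, had 6.87 on the Shox2-/- array and 7.27 on the wildtype array, a difference of -0.40. On the Shox2-/- array it lay below the level of receptor genes. The remaining genes, Sox13, Sox14, Sox15, Sox21 and Sox30, had differences from 0.051 to 0.21.

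**Figure D4:**
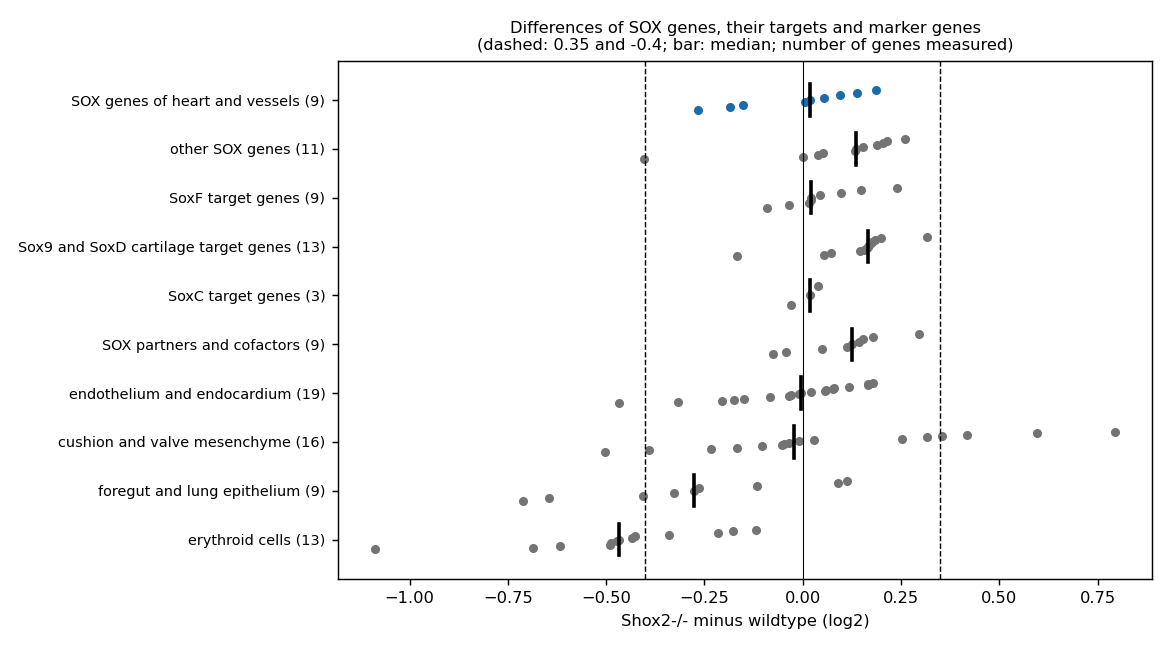
Differences on the log2 scale, Shox2-/- minus wildtype, of the SOX genes of heart and vessels and of 9 further lists, with 1 point per gene, a bar at the median and dashed lines at the thresholds. The SOX genes of heart and vessels run from -0.27 to 0.19, and among the lists drawn, which leave out liver, lymphatic, muscle, epicardium and neural crest genes, the erythroid list has the lowest median, -0.47.

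Of the 9 partners and cofactors measured, 7 had a difference above 0, beside 54.9% of all genes, none reached a threshold, and the median was 0.13. With the trend removed, all 9 lay above 0, beside 50.6% of all genes, with a median of 0.090. Nr5a1, Pou3f2 and Pou3f3 lay little above the level of receptor genes on both arrays. The highest were Nr5a1, a partner of Sox9 in the gonad, with 7.12 on the Shox2-/- array and 6.82 on the wildtype array, and the neural factor Pou3f3 with a difference of 0.18. Nr2f2, a factor of venous endothelium and atrial muscle, had 9.99 on the Shox2-/- array and 9.84 on the wildtype array. In their values on the 2 arrays, the named genes nearest to Sox9 were Ncbp2, at a Euclidean distance of 0.0039, and Btaf1, at 0.013, and those nearest to Sox7 were Gli2 and 1500035N22Rik, both at 0.016. With only 2 arrays, this likeness means an equal level and an equal difference.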

How the data were processed

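Gene expression was measured in right atria of Shox2-/- and wildtype embryos, with 1 pool and 1 array per genotype. The authors log transformed and quantile normalized perfect-match values of GeneChip Mouse Gene 1.0 ST arrays, fitted log-linear models in JMP Genomics 4.0 and grouped probes into Entrez genes with a custom CDF of version 14, and each gene has 1 deposited log2 value on each array. The log base was read from the values (5.09 to 13.59). The sources used here name no background correction and no genome build.

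Differences are Shox2-/- minus wildtype. Of 21225 genes, 20239 had a symbol in the platform annotation. Genes were counted at 0.35 and -0.4 without a P, and precision is limited by having only 2 arrays. Alternatives were centring on array medians, a lowess trend removed (span 0.3 or 0.6, 3 iterations, checked on simulated data), a second quantile normalization, genes above the receptor level, and thresholds of 0.4 or a 2-fold change. Named are all SOX genes, Shox2, and of each list the genes past a threshold or of largest difference, while other genes were chosen as examples after their values were seen. The members and lists were chosen with earlier results of these data known. Upstream sequences are from RefSeq, GRCm38.p6. Python 3.11.15, numpy 2.4.6, pandas 2.3.3, statsmodels 0.14.6 and matplotlib 3.10.9 were used.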

Additional observations from a re-analysis of the deposited data

How the results depend on the processing

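None of the 9 SOX genes was past a threshold under any of the 7 alternatives. Some of these could not have given another result. With none past 0.35 or -0.4, none could pass the stricter cutoffs of 0.4 or a 2-fold change. All 9 genes exceeded the level of receptor genes on both arrays, so that leaving out genes below it removed none of them. Median centring moved every gene by the same small amount. Only trend removal and the second quantile normalization therefore put the result to a test. A 2-fold change was reached by 16 of all genes, in place of the 617 past 0.35 or -0.4. Other settings over all genes left between 509 and 609. Among only the 14421 genes above the receptor level, 505 were past a threshold, a count out of fewer genes. The median over the 9 SOX genes was between 0.015 and 0.069. Of the 9 genes, 8 kept their sign under all scalings, and Sox17 did not (-0.063 with the trend removed at span 0.3, -0.048 at span 0.6 and -0.055 after a second quantile normalization). Each single difference moved by less than 0.1, which is not small beside the differences themselves. After a second quantile normalization, Sox11 went from 0.053 to 0.15 and Sox6 from -0.15 to -0.078. No paired analysis was possible because each genotype has a single array, which also leaves no replicate to drop. Signal over background limits Sox17 most, as it lay nearest to the level of receptor genes.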

Other observations

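Genes of the epicardium and of neural crest were measured on the same arrays and stand outside the SOX lists above. Of 8 epicardial genes, 7 had a difference above 0, beside 54.9% of all genes, with a median of 0.15. The keratin gene Krt19 was past the upper threshold, with 8.83 on the Shox2-/- array and 8.38 on the wildtype array. Of all genes, 1.13% were past that threshold. The epicardial factor Tcf21 was the one below 0, with -0.14. Of 10 genes of neural crest and neurons, 6 lay above and 4 below 0, and 5 and 5 with the trend removed. The AP-2 factor genes Tfap2b, with 7.49 on the Shox2-/- array and 6.86 on the wildtype array, and Tfap2a, with 7.40 on the Shox2-/- array and 6.93 on the wildtype array, were past the upper threshold, and Dbh, the enzyme that makes noradrenaline, was past the lower one with 7.04 on the Shox2-/- array and 7.51 on the wildtype array. Of the 9 liver genes, 8 were past the lower threshold, against 1.78% of all genes. In 15 genes of atrial and sinus muscle, 12 lay above 0, beside 54.9% of all genes. None was past a threshold, with Nkx2-5 highest at 0.27. With the trend removed, Nkx2-5 was past the upper threshold with 0.35.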
